A study of Mus musculus with 8 samples.

Results

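Endothelium-rich spots of the E14.5 diaphragm are the capture spots in which transcripts of vascular endothelial cells took the largest share of all transcripts. In each of the 3 control sections, spots with at least 1000 unique molecular identifiers (UMIs, 1 per captured transcript) were ranked by the summed UMIs of *Cdh5*, *Pecam1*, *Esam*, *Cd93* and *Kdr* divided by the UMIs of the spot, and the top 10% were taken. This gave 81 of 813 spots in control 1, 84 of 842 in control 2 and 68 of 683 in control 3, together 233 of 2338 spots, out of 12703 such spots in the 8 sections of the series. The spots left in each section are called other spots.

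The sections are horizontal 5 µm slices of formaldehyde-fixed, paraffin-embedded mouse diaphragm on 10x Visium arrays, whose spots are 55 µm wide and 100 µm apart, so that a spot held parts of several cells and no spot was purely endothelial. Each section came from a different embryo. The 3 controls at E14.5 and the 2 controls at E18.5 carried at least 1 expressed allele of both CaV1.1 (the calcium channel of the muscle fiber) and β-catenin. The labels call them control, name no treatment, and do not give the alleles of single embryos. The 1 CaV1.1 KO section at E14.5 came from an embryo without this channel, in which fibers do not contract. Over all spots under tissue, E14.5 controls 1, 2 and 3 held 30618837, 38967220 and 14179161 UMIs, with a median of 18315, 45284 and 20245 UMIs per spot.

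Endothelial cells line all blood vessels, and in growing muscle they form a capillary network between the fibers. *Cdh5* and *Pecam1* encode adhesion molecules of the junctions between these cells, *Esam* a further junction protein, *Cd93* a surface glycoprotein, and *Kdr* the main receptor for VEGF-A. Sprouting is led by tip cells, in which VEGF signals raise the Notch ligand *Dll4*, while arteries, veins and capillaries differ in Notch, ephrin and fatty acid transport genes. Mural cells (pericytes and smooth muscle cells) wrap the endothelial tube, are held there by PDGF and angiopoietin signals, and share its basement membrane.

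The 3 sections differed in where the chosen spots lay. Muscle spots were those whose mean over 9 muscle genes lay above the Otsu threshold of the section. Of the endothelium-rich spots, 39.5% were muscle spots in control 1, with an exact (Clopper-Pearson) 95% interval of 28.8 to 51.0. The share was 82.1% (72.3–89.6) in control 2 and 75.0% (63.0–84.7) in control 3. Among the other spots, muscle spots made up 70.6%, 66.2% and 86.2%. Endothelium-rich spots were therefore mostly outside muscle in control 1, and mostly within it in controls 2 and 3, with a share above that of the other spots in control 2 alone. They also had fewer UMIs in control 1, where their median was 8911 against 20022.5 in other spots, than in control 2 (47600.5 against 45149) and control 3 (17519.5 against 21207). Intervals of shares cover counting error only.

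The chosen spots clustered to different degrees. In control 2, 44.7% of the neighbours of an endothelium-rich spot were endothelium-rich too, against 6.13% of the neighbours of other spots, and the largest group of touching spots held 28. In controls 1 and 3, the same shares were 19.2% against 9.13% and 20.9% against 8.36%, and the largest groups held 13 and 6 spots. Spots with no chosen neighbour numbered 27, 12 and 28 in controls 1, 2 and 3. Edge spots, those with fewer than 6 kept neighbours, made up 33.3%, 9.52% and 41.2% of the endothelium-rich spots, against 30.3%, 32.2% and 38.2% of the other spots. The edge share of the endothelium-rich spots was thus lowest in control 2, where it was below that of the other spots. In controls 1 and 2, 1 chosen spot in each had no kept spot next to it. In the map of the 3 sections these groups appear as patches in control 2 and as scattered spots in control 3.

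**Figure D1:**
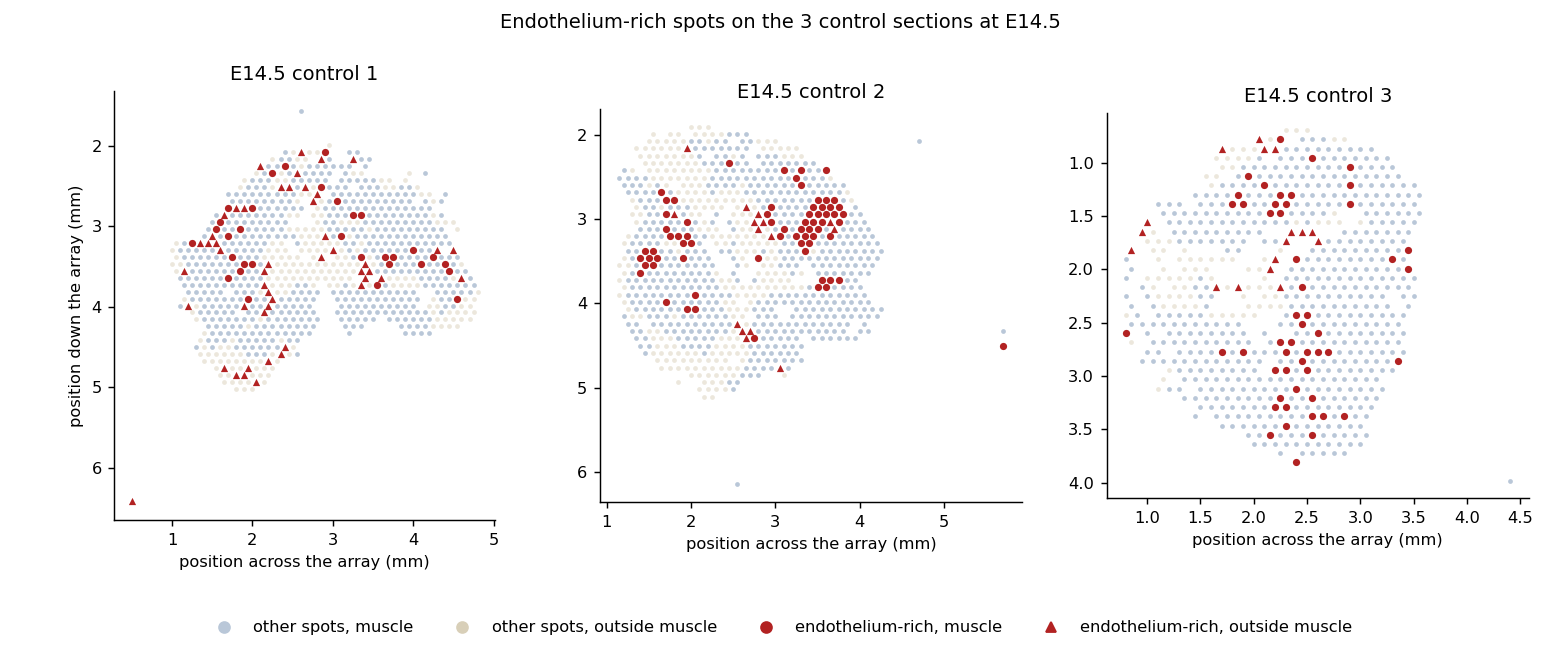
Spots of the 3 control sections at E14.5 by their position on the array in mm along both axes. Red circles are endothelium-rich spots in muscle, red triangles those outside muscle, and pale points the other spots in muscle (blue) and outside it (beige). The largest group of touching endothelium-rich spots holds 13, 28 and 6 spots in controls 1, 2 and 3.

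Control 1 stood apart in a further way: its section held adrenal cortex transcripts. Levels are given as CPM, the summed UMIs of a gene or list scaled to a common total of UMIs in each sum. The summed level of 4 adrenal cortex genes was 1937 CPM in its endothelium-rich spots and 528 in its other spots, against 3.36 and 5.36 in control 2 and 6.70 and 4.93 in control 3. The most abundant of them in the chosen spots was *Cyp11a1*, the enzyme that starts steroid synthesis, at 752 CPM. Of the 17 spots of control 1 with over 10 adrenal UMIs per 10000, 3 were endothelium-rich. Counts of the gene lists without this section are therefore given after the main comparison.

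By the measure that chose them, the spots held a median of 11.5, 10.6 and 7.23 UMIs of the 5 genes per 10000 UMIs in controls 1, 2 and 3, against 2.56, 2.96 and 2.86 in other spots. The last spot inside and the first spot outside stood at 8.181 and 8.109 in control 1, 8.100 and 8.098 in control 2, and 5.869 and 5.856 in control 3, so that the boundary ran through a continuous range. The counts behind this choice were small: a median of 10, 45 and 12 UMIs of the 5 genes per endothelium-rich spot. Their lowest value was 2, 2 and 1, and the median of other spots was 5, 12 and 6. Spots under 5000 UMIs numbered 19 of 81, 16 of 84 and 10 of 68 among the chosen. Among the other spots they numbered 65 of 732, 53 of 758 and 25 of 615.

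The 5 genes are given here as a description, since they chose the spots. *Cdh5* (chromosome 8, 104101613 to 104144504, RefSeq annotation of GRCm38.p6) was the most abundant, with 431, 410 and 268 CPM in the endothelium-rich spots of controls 1, 2 and 3 and 111, 118 and 109 in other spots. *Pecam1* (chromosome 11, 106654213 to 106715281) stood at 125, 126 and 82.9 against 31.7, 34.5 and 30.8. *Esam* (chromosome 9, 37528089 to 37538319) was at 100, 111 and 77.8 against 28.6, 33.4 and 29.1. The levels in other spots were thus alike in the 3 sections, while control 3 was lowest in the chosen spots for each of these genes. *Cd93* (chromosome 2, 148436651 to 148443535) reached 222, 261 and 182 against 66.5, 75.4 and 67.1. *Kdr* (chromosome 5, 75932827 to 75979072) reached 220, 216 and 155 against 70.7, 78.4 and 64.7. *Cdh5* had a UMI in 96.3%, 96.4% and 97.1% of endothelium-rich and in 76.8%, 84.3% and 80.5% of other spots, and *Pecam1* in 67.9%, 85.7% and 70.6% against 45.8%, 62.8% and 44.1%. CPM is a share of all UMIs. In sums over tissue, more endothelial cells per spot, more RNA per endothelial cell and less RNA of other cells cannot be told apart.

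Whether the 5 genes marked the same spots was asked by testing each of them on spots chosen by the other 4. *Pecam1* then stood at 113, 123 and 65.1 TMM-scaled CPM in controls 1, 2 and 3, against 33.3, 35.2 and 32.7 in other spots, with no overlap between the groups. Its log2 fold change was 1.60 ± 0.14 (SE, 3 sections), with an adjusted p of 0.00511 by edgeR's quasi-likelihood F test over all genes with the section as a block. *Kdr* (1.22 ± 0.12, adjusted p = 1.98e-04 by edgeR), *Cd93* (1.44 ± 0.14, adjusted p = 0.00617) and *Esam* (1.47 ± 0.13, adjusted p = 0.0220) also passed, each higher in 3 of 3 sections. *Cdh5* did not pass (1.39 ± 0.16, adjusted p = 0.229), although its levels of 328, 385 and 215 lay above the 114, 121 and 114 of other spots. It passed within muscle spots (1.40 ± 0.10, adjusted p = 8.16e-07 by edgeR) and without control 1 (1.37 ± 0.13, adjusted p = 1.45e-04), as well as by DESeq2 on the same 3 sections (1.38, adjusted p = 1.61e-09), and by edgeR it did not pass without control 2 (1.23 ± 0.18, adjusted p = 0.346), without control 3 (1.61 ± 0.12, adjusted p = 0.186) or against spots next to a chosen one (0.90 ± 0.09, adjusted p = 0.0805). Without the section as a block, *Pecam1* alone passed (adjusted p = 0.0472 by edgeR). When spots were ranked by 8 other endothelial genes in place of the 5, the top 10% held 42 of the 81 chosen spots of control 1 (51.9%), 53 of the 84 of control 2 (63.1%) and 19 of the 68 of control 3 (27.9%). The choice of spots thus depended on the genes used, most in control 3.

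Beyond the genes of the rule, endothelium-rich spots differed from other spots in few genes at the threshold used. UMIs were summed per section and class of spots, and 12847 genes were tested in 3 pairs of sums. By edgeR, 76 genes rose in the endothelium-rich spots (adjusted p under 0.05), which is 0.592% of those tested, and 15 fell, which is 0.117%. Of the 76, 35 were in the 14 lists of endothelial, vessel wall and vascular signalling genes, 1 in another list and 40 in none. At an unadjusted p under 0.05 there were 1401 genes. Of 30 further endothelial genes that had no part in the choice, 21 rose, none fell and 9 did not pass, and their median log2 fold change was 1.31, against -0.0017 over all genes tested. These genes had been listed with earlier results of these data known. In 29 of the 30 the level was higher in each of the 3 sections, against 16.4% of all genes tested. The exception, *Tie1*, an orphan receptor of the angiopoietin system named for this reason after its values were seen, stood at 11.2, 15 and 3.35 CPM against 3.29, 3.45 and 3.70 (adjusted p = 0.181 by edgeR).

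*Emcn*, a sialomucin of capillary and venous endothelium, stood at 78.2, 55 and 25.9 CPM in endothelium-rich spots of controls 1, 2 and 3, and at 19.8, 16.8 and 17.7 in other spots. The groups did not overlap, and the log2 fold change was 1.54 ± 0.22 (adjusted p = 0.0288 by edgeR). *Plvap*, which forms the diaphragms of fenestrae and caveolae, reached 155, 98.4 and 51.0 against 41.0, 34 and 31.2. Its log2 fold change was 1.48 ± 0.18 (adjusted p = 0.0272 by edgeR), with the highest level in control 1 and the lowest in control 3. *Mmrn2*, an extracellular matrix protein that binds the product of *Cd93*, changed by 1.59 ± 0.26 (adjusted p = 0.0417 by edgeR) at low levels, 23.1, 21.4 and 10.9 against 5.76, 6.50 and 6.32. *Adgrl4*, an endothelial adhesion receptor, changed by 1.48 ± 0.20 (adjusted p = 0.0281 by edgeR). Of the most abundant members that did not pass, *Ramp2*, which makes the receptor for adrenomedullin together with *Calcrl*, stood at 134, 104 and 59.4 against 51.9, 55.1 and 48.0 (0.91 ± 0.16, adjusted p = 0.0510 by edgeR), and *Mcam*, an adhesion molecule that mural cells share, had a log2 fold change of 0.48 ± 0.10 (adjusted p = 0.0999). In the plot of genes by section, the endothelium-rich points of control 3 lie nearest to those of the other spots.

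**Figure D2:**
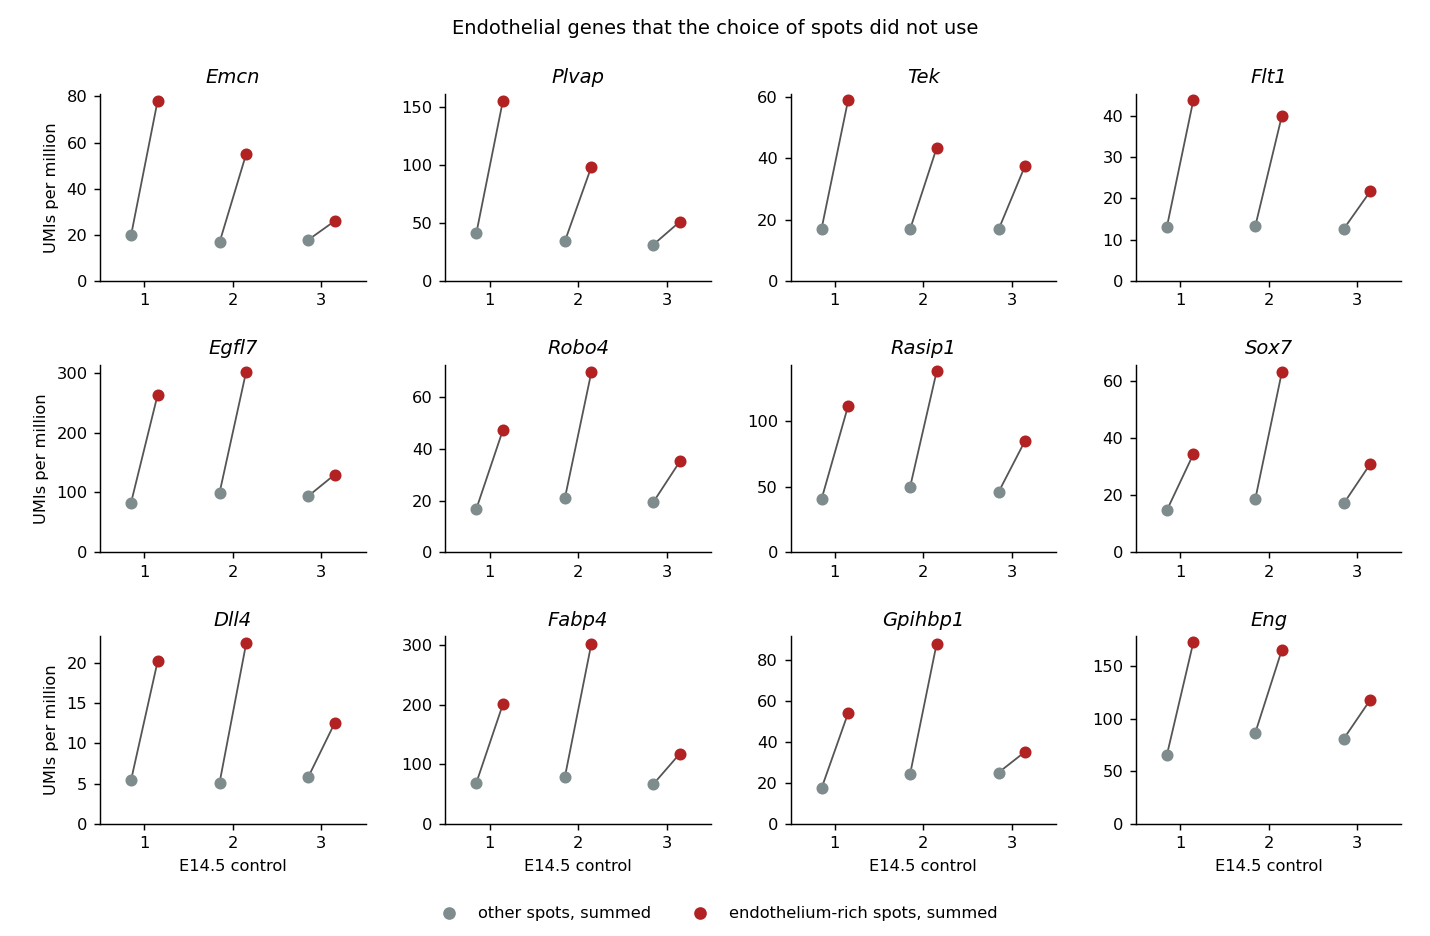
CPM (vertical axis, from 0) of 12 endothelial genes that had no part in the choice, in the summed endothelium-rich (red) and other (grey) spots of each control section at E14.5, with a line joining the points of a section. *Emcn* stands at 78.2, 55 and 25.9 in endothelium-rich spots and at 19.8, 16.8 and 17.7 in other spots.

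The number of genes that passed depended on the sections and on the choice of spots. Without control 2 no gene of the whole table passed by edgeR (1112 genes had an unadjusted p under 0.05, and DESeq2 on all 3 sections called 162), and the 30 endothelial genes had a median of 1.15. Without control 1, 278 genes rose (2.16% of 12898 tested) and 274 fell (2.12%), and 29 of the 30 rose. Without control 3, both sections left being made with Space Ranger 2.0.0, 102 rose (0.746% of 13664 tested) and 19 fell (0.139%), and 25 of the 30 rose. No gene of the list passed without the section as a block, with the top 20% of spots, with a minimum of 5000 UMIs per spot or with the mean z-score of the 5 genes as the ranking, where its medians were 1.33, 1.13, 1.30 and 1.28. All 30 log2 fold changes were positive in each of these settings.

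Promoters of endothelial genes are known for binding sites of ETS family factors, such as the products of *Erg*, *Fli1* and *Ets1*, whose core is GGAA. The 8-letter motif ACNGGAAG, read on both strands (CTTCCNGT on the other), was searched in RefSeq promoters of GRCm38.p6, from 250 bases before to 50 after a transcript start, with the first listed start of each gene. This start need not be the outer end of the gene, and in *Flt1* and *Emcn* it lies inside the annotated gene. It was found in 7.99% of all 27025 promoters and in 9.53% of the 10066 promoters of genes tested. Of the 76 genes that rose, 51 had a promoter in the table and 7 of these (13.7%) held the motif. Of the 30 endothelial genes, 19 had a promoter and 5 (26.3%) held it. A match is a description of letters and not a binding site. To show where the letters lie, 100 bases are printed for 4 genes of the list that rose and held the motif, each 5′ to 3′ on the strand of its gene with the motif in capitals. The windows lie at chr3:137340858-137340957 (plus strand) for *Emcn*, chr5:147726032-147726131 (minus strand) for *Flt1*, chr2:26580946-26581045 (plus strand) for *Egfl7* and chr10:5593576-5593675 (plus strand) for *Myct1*.
Emcn: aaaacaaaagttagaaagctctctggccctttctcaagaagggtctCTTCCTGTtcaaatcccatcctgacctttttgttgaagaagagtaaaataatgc
Flt1: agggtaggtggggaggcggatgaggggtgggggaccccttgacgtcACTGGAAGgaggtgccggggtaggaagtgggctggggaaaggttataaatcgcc
Egfl7: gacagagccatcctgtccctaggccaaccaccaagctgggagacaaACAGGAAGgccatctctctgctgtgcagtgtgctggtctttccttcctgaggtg
Myct1: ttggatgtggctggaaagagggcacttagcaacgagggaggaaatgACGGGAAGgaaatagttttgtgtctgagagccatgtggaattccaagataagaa

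Among 20 transcription factors of endothelial cells, 5 rose and none fell, where 0.592% of all genes tested rose and 0.117% fell. Their median log2 fold change was 0.70. *Sox7*, a SoxF factor of vascular development, stood at 34.3, 63.0 and 31.0 CPM in endothelium-rich spots of controls 1, 2 and 3 against 14.6, 18.7 and 17.1. It was highest in control 2, and its log2 fold change was 1.36 ± 0.18 (adjusted p = 0.0281 by edgeR). Its relative *Sox18* changed by 1.34 ± 0.21 (adjusted p = 0.0392 by edgeR), the repressor *Bcl6b* by 1.29 ± 0.22 (adjusted p = 0.0487), and the ETS factor *Ets1* by 0.90 ± 0.13 (adjusted p = 0.0288). *Mef2c*, which muscle fibers also express strongly, did not pass and had levels of 305, 431 and 469 against 447, 453 and 515. Where only spots outside muscle were ranked, it was higher in endothelium-rich spots (0.49, adjusted p = 0.0192 by edgeR).

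Some receptors of the vessel wall rose, and no ligand was called when all spots were compared. Of 12 vascular receptors, among them those for VEGF, angiopoietin, apelin, adrenomedullin, PDGF and CXCL12, 3 rose. All 12 log2 fold changes were positive, with a median of 0.89, where 0.592% of all genes tested rose and 49.6% were positive. *Tek*, the angiopoietin receptor, stood at 59.1, 43.4 and 37.7 CPM against 17, 16.8 and 16.8, without overlap (1.44 ± 0.14, adjusted p = 0.0272 by edgeR). *Flt1*, the decoy receptor for VEGF-A, stood at 43.9, 40.0 and 21.8 against 13.0, 13.3 and 12.6 (1.44 ± 0.19, adjusted p = 0.0281 by edgeR). *Cxcr4*, the receptor for CXCL12, rose by 0.85 ± 0.14 on the log2 scale (adjusted p = 0.0406 by edgeR), with a value of -0.15 where only spots outside muscle were ranked, and *Nrp2*, a co-receptor of veins and lymphatics, did not pass (0.16). Of 11 ligands, none passed, and the median was 0.44, with *Cxcl12* the most abundant at a log2 fold change of 0.59. In muscle spots only, 3 of the 11 ligands rose and none fell, where 2.36% of all genes tested rose and 1.96% fell.

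Genes of arterial endothelium and of Notch signalling were among those that rose. Of 12 arterial genes, 3 rose, all 12 log2 fold changes were positive and the median was 0.91. Over all genes tested, 0.592% rose and 49.6% were positive. *Dll4*, the Notch ligand of arteries and tip cells, stood at 20.2, 22.5 and 12.6 CPM in endothelium-rich spots of controls 1, 2 and 3 against 5.44, 5.13 and 5.78. With a log2 fold change of 1.78 ± 0.26 (adjusted p = 0.0288 by edgeR), it had the largest rise of the list genes that passed. *Sema3g*, a semaphorin of arteries, changed by 1.33 ± 0.20 (adjusted p = 0.0326 by edgeR) and *Unc5b*, a netrin receptor, by 0.78 ± 0.13 (adjusted p = 0.0406), while *Hey1*, a Notch target, did not pass (0.34 ± 0.11, adjusted p = 0.313). Of 13 Notch genes, *Dll4* and *Nrarp*, a target that dampens the pathway, rose, the latter with 41.6, 51.4 and 36.0 against 17.1, 21.0 and 18.4 (1.19 ± 0.13, adjusted p = 0.0272 by edgeR). The median of the Notch genes was 0.27, and *Notch1* had a log2 fold change of 0.35. Of 10 BMP and TGF-β genes, 2 rose: *Acvrl1*, the BMP9 receptor of endothelium, at 56.2, 42.6 and 31.8 against 20.3, 19.1 and 16.7 (1.19 ± 0.13, adjusted p = 0.0272 by edgeR), and its co-receptor *Eng*, at 173, 165 and 118 against 65.0, 86.6 and 80.9 (0.97 ± 0.13, adjusted p = 0.0281).

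Of 8 capillary genes tested, 3 rose, none fell, 7 had a positive log2 fold change, and the median was 0.33. Over all genes tested, 0.592% rose, 0.117% fell and 49.6% were positive. *Fabp4*, a fatty acid binding protein of capillaries, reached 201, 303 and 118 CPM in endothelium-rich spots of controls 1, 2 and 3 against 68.7, 78.3 and 66.5. Control 2 was highest, and the log2 fold change was 1.49 ± 0.18 (adjusted p = 0.0272 by edgeR). *Gpihbp1*, which holds lipoprotein lipase at the capillary wall, changed by 1.45 ± 0.22 (adjusted p = 0.0351 by edgeR), and *Kit*, the receptor for stem cell factor, by 1.01 ± 0.14 (adjusted p = 0.0281). *Cd36*, a fatty acid transporter that muscle fibers also express, stood at 116, 174 and 131 against 124, 109 and 122 and did not pass (0.24 ± 0.15, adjusted p = 0.632 by edgeR). Of 8 fatty acid uptake genes, *Fabp4* and *Gpihbp1* rose and the median was 0.06.

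The venous, tip cell and lymphatic lists were short, and shares of called genes were not compared between lists (0.592% of all genes tested rose). Of 5 venous genes none passed (median 0.37), with the arteriovenous receptor *Ephb4* at 0.28. Of 9 tip cell genes, *Cxcr4* rose and the median was 0.65. Of 6 lymphatic genes none passed and 3 had a positive log2 fold change (median 0.23), with the summed level at 180, 169 and 168 CPM in endothelium-rich spots of controls 1, 2 and 3 against 148, 149 and 178 in other spots. The most abundant lymphatic genes, *Pdpn* and *Prox1*, are also expressed outside lymphatics. In muscle spots only, 2 venous, 4 tip cell and 1 lymphatic gene rose and none fell, where 2.36% of all genes tested rose.

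Of 17 mural genes at E14.5, 1 rose, none fell, and the median log2 fold change was 0.20, where 0.592% of all genes tested rose. The count depended on the spots and sections used. In muscle spots only, 4 mural genes rose and 1 fell, where 2.36% of all genes tested rose and 1.96% fell. More mural genes also rose without control 1, as given below. The summed level of the list was 1073, 1040 and 1098 CPM in endothelium-rich spots of controls 1, 2 and 3 and 1128, 979 and 1072 in other spots. The gene that rose was *Ndufa4l2*, a mitochondrial protein of pericytes, at 31.5, 24.0 and 20.1 against 12.6, 10.4 and 9.25 (1.21 ± 0.16, adjusted p = 0.0281 by edgeR). The contractile genes *Acta2* and *Tagln*, which young skeletal muscle also expresses, had log2 fold changes of -0.36 ± 0.12 and -0.30 ± 0.08 (adjusted p = 0.332 and 0.223 by edgeR), with *Acta2* at 273, 284 and 380 against 437, 338 and 399. Of 12 basement membrane genes none passed and 10 were positive (median 0.28), with *Col4a1*, a collagen IV chain, at 648, 722 and 526 against 472, 398 and 436 (0.51 ± 0.12, adjusted p = 0.133 by edgeR). Of 12 proliferation genes none passed, although all 12 log2 fold changes were positive, with a median of 0.11, and 4 were higher in each section.

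When the spots were ranked by the share of the 5 genes and divided into 10 groups of equal size, the summed level of the 30 endothelial genes went from 542 CPM in the lowest to 2739 in the highest group of control 1, from 620 to 2802 in control 2 and from 821 to 1559 in control 3. The summed mural level went from 1047 to 1072, from 947 to 1040 and from 941 to 1098. Control 3 had the narrowest endothelial range, from the highest low end to the lowest high end.

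**Figure D3:**
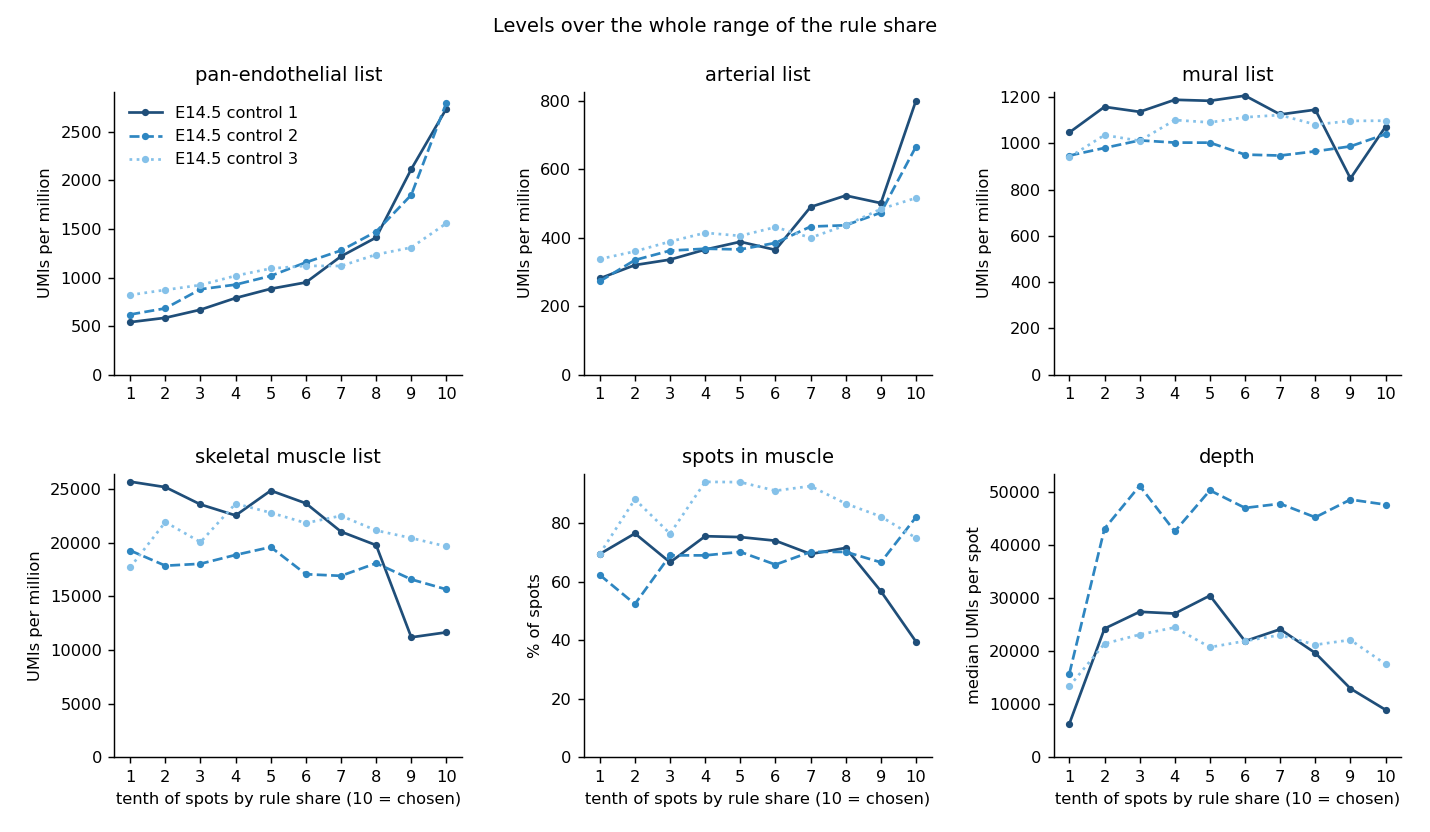
Summed level of 4 gene lists (CPM), share of spots in muscle (%) and median UMIs per spot in 10 groups of spots of each control section at E14.5, ranked by the share of the 5 genes that chose the spots (group 10 is the chosen one), with a line for each section. The 30 endothelial genes end at 2739, 2802 and 1559 in the highest group of controls 1, 2 and 3, and the mural genes at 1072, 1040 and 1098.

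Among genes of other cells, those of the liver fell. All 5 hepatocyte genes fell, with a median log2 fold change of -1.65, where 0.117% of all genes tested fell. *Alb*, which encodes albumin, stood at 0.562, 159 and 186 CPM in endothelium-rich spots of controls 1, 2 and 3 against 7.70, 700 and 367, so that it was low in control 1 throughout. *Apoa1* and *Ttr*, which encode plasma proteins, changed by -1.82 ± 0.29 (adjusted p = 0.0392 by edgeR) and -1.74 ± 0.23 (adjusted p = 0.0281). Of 7 mesothelial genes, *Lrrn4* fell (-1.55 ± 0.21, adjusted p = 0.0281 by edgeR), at 13.5, 10.8 and 15.1 against 30.9, 45.5 and 28.1, and the median was -1.88. None of the 7 erythrocyte genes passed (median -0.91), and their summed level pointed in different directions, 425 against 156 in control 1, 2008 against 5251 in control 2 and 1545 against 2631 in control 3, with *Hbb-bs*, the adult β-globin, the most abundant in each. Of 10 macrophage genes none was called, with a median of -0.07 and summed levels of 370, 324 and 309 against 353, 347 and 322.

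Skeletal muscle genes had lower values with no call. All 9 were lower in each of the 3 sections (17.3% of all genes tested were) with a median of -0.43, and their summed level was 11643, 15649 and 19653 CPM against 21885, 17967 and 21524. The gap was widest in control 1. All 8 endplate genes were lower in each section too (median -0.47), and the 7 myogenic genes had a median of -0.34. These directions turned where only spots outside muscle were ranked: all 9 muscle genes then had positive log2 fold changes (median 0.38, 2 called higher, where 1.61% of the 10239 genes tested were and 1.32% were called lower), as did all 7 myogenic genes (median 0.36) and 6 of 8 endplate genes (median 0.20). Tendon genes had a median of -0.30 and fibroblast genes of -0.04, none of 7 and none of 9 being called, and of 2 adrenal genes *Cyp11a1* was called (1.71 ± 0.24, adjusted p = 0.0288 by edgeR) from levels of 752 against 197 in control 1, 0.258 against 0.855 in control 2 and 1.67 against 0.925 in control 3. Its call thus rests on control 1, without which it did not pass the filter on low counts. With the spots of over 10 adrenal UMIs per 10000 left out, an alternative chosen after seeing the data, the 30 endothelial genes had a median of 1.37 and all 30 rose, where 1.78% of the 12845 genes tested rose and 0.919% fell. The part of the muscle and liver levels in the endothelial contrast was not tested.

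Without control 1, where 2.16% of all genes tested rose and 2.12% fell by edgeR, 29 of the 30 endothelial genes rose, 12 of 20 transcription factors, 10 of 11 arterial, 4 of 8 capillary, 9 of 12 receptor, 7 of 13 Notch, 8 of 12 basement membrane and 5 of 17 mural genes. All 5 hepatocyte genes fell in this fit as well, along with 4 of 6 mesothelial and 6 of 8 erythrocyte genes. Of the 9 skeletal muscle genes none was called and all 9 log2 fold changes were negative (median -0.16).

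**Figure D4:**
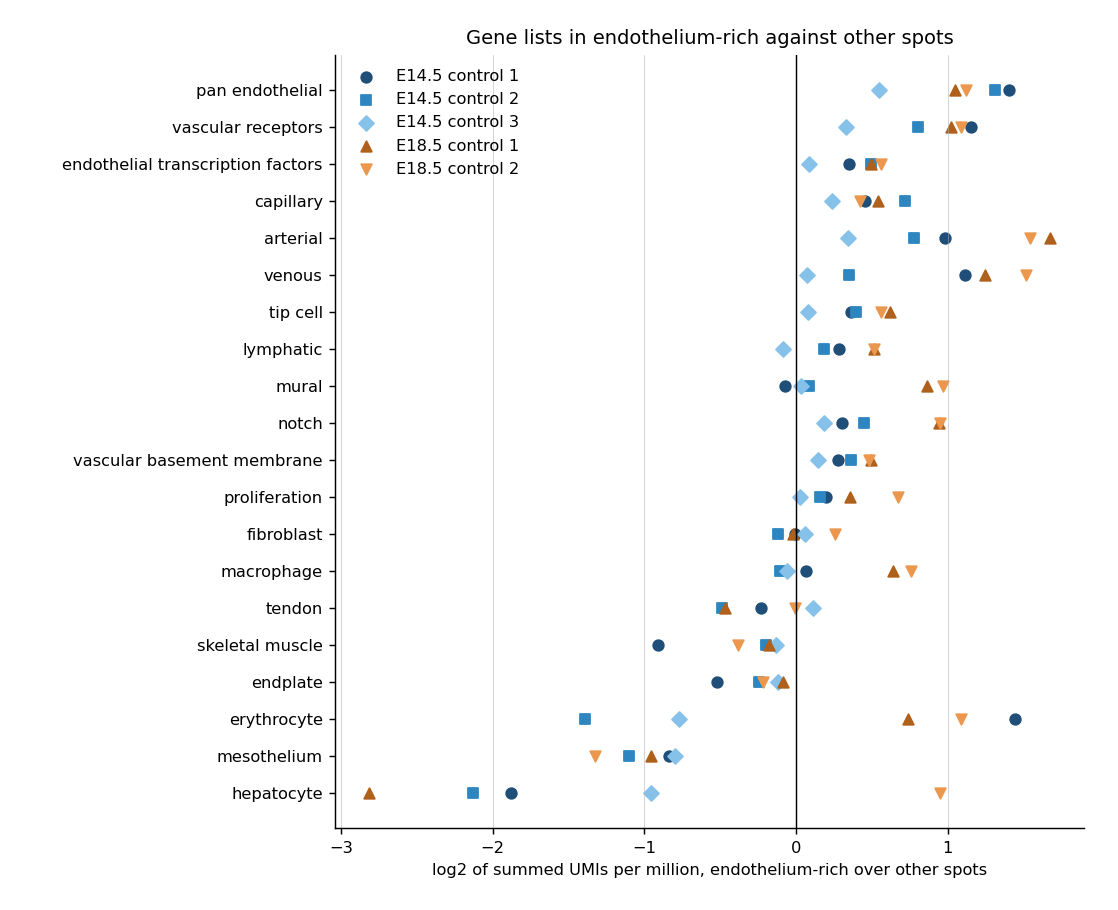
log2 of the summed level (CPM) of each gene list in endothelium-rich over that in other spots, with a point for each of the 3 control sections at E14.5 (blue) and the 2 at E18.5 (orange). The 30 endothelial genes stand to the right of 0 in each section, and erythrocyte genes on both sides of it.

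Outside the lists, the called genes with the largest contrasts and at least moderate levels were in part known endothelial genes. *Ctla2a*, a cysteine protease inhibitor, stood at 61.9, 57.1 and 31.0 CPM against 14.9, 18.1 and 16 (1.61 ± 0.18, adjusted p = 0.0272 by edgeR). *Prex2*, a Rac exchange factor, stood at 83.2, 67.9 and 35.1 against 22.7, 24.3 and 19.3 (1.47 ± 0.16, adjusted p = 0.0272 by edgeR). In both genes the 3 endothelium-rich values lay above all 3 other values. *Cyyr1* (1.44 ± 0.22), *C130074G19Rik* (1.28 ± 0.13), *Rasgrp3* (1.27 ± 0.18), *Rapgef5* (1.25 ± 0.17), *Cav2* (1.22 ± 0.15), *Dach1* (1.21 ± 0.19) and *Gimap6* (1.21 ± 0.14) also rose by edgeR. Only *Dach1* among them had overlapping groups, and no share of all genes tested without overlap is given. All these genes were picked as called with large changes and the same direction in every section, which favours groups without overlap. Of these, *Rasgrp3* and *Rapgef5* encode exchange factors of small GTPases, *Cav2* a caveolin, and *Dach1* a transcription factor known from coronary arteries. The largest contrast was that of *Mc2r*, the ACTH receptor of the adrenal cortex (1.997 ± 0.27, adjusted p = 0.0281 by edgeR), with 222, 3 and 2 UMIs in the endothelium-rich spots of controls 1, 2 and 3 and 781, 18 and 3 in other spots. It rests on control 1, without which it did not pass the filter on low counts, and without the spots of highest adrenal level it did not pass (1.54, adjusted p = 0.170 by edgeR). Of the genes that fell outside the lists, *Fras1*, a basement membrane protein of epithelia, stood at 50.6, 42.4 and 52.7 against 77.1, 76.3 and 68.6 (-0.67 ± 0.11, adjusted p = 0.0392 by edgeR), and *Ambp*, a plasma protein of the liver, at 0, 15 and 9.21 against 1.07, 53.8 and 29.1 (adjusted p = 0.0272).

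The contrast was larger in calls when only muscle spots were ranked and compared, which leaves out the tissue around the muscle. The top 10% then held 55, 57 and 58 spots. By edgeR, 295 genes rose (2.36% of 12521 tested) and 245 fell (1.96%). Of the 30 endothelial genes 29 rose, with a median of 1.19 against -0.0057 over all genes tested. Within muscle, 13 of the endothelial transcription factors rose and 1 fell, and 8 arterial, 6 capillary, 4 tip cell, 2 venous, 9 receptor and 8 basement membrane genes rose, while 1 basement membrane gene fell. Also called higher were 3 ligand, 5 BMP and TGF-β, 3 Notch, 3 fatty acid uptake and 1 lymphatic gene, with none called lower in these lists. *Gpihbp1* had a log2 fold change of 1.60 ± 0.17 (adjusted p = 2.1e-05 by edgeR), *Fabp4* of 1.57 ± 0.13 (adjusted p = 1.9e-06) and *Robo4*, an endothelial guidance receptor, of 1.49 ± 0.16 (adjusted p = 2.1e-05). All 9 muscle genes fell, and so did 6 endplate and 4 myogenic genes, so that endothelium-rich muscle spots held a smaller share of muscle transcripts. All 5 hepatocyte genes were called lower too, but each was lower in control 2 only and higher in controls 1 and 3, with *Alb* at 10.8, 103 and 188 TMM-scaled CPM against 5.44, 521 and 178. Of the mural genes 4 rose and 1 fell. Without control 1, an alternative chosen after seeing the data, 152 genes rose (1.2% of 12653 tested) and 65 fell (0.514%), and 27 of the 30 endothelial genes rose.

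Endothelium-rich spots differed among themselves between muscle and the tissue around it. The 32, 69 and 51 muscle spots among them were compared with the 49, 15 and 17 others, and the 9 genes that define muscle spots were left out. Here 486 genes were higher in muscle (5.2% of 9344 tested) and 441 lower (4.72%). None of the 29 endothelial genes passed in either direction (median -0.19, against -0.02 over all genes), and a missed threshold does not show equal levels. Of 7 fatty acid uptake genes, 4 were called higher in the muscle spots, none was called lower and 3 did not pass. *Cd36* stood at 208, 184 and 138 TMM-scaled CPM in muscle spots of controls 1, 2 and 3 and at 87.1, 90.7 and 94.6 in the others (1.05 ± 0.18, adjusted p = 2.29e-04 by edgeR), without overlap. *Lpl*, the lipoprotein lipase that muscle fibers make, changed by 0.68 ± 0.18 (adjusted p = 0.0158 by edgeR), *Fabp4* by 0.65 ± 0.17 (adjusted p = 0.0147, called in 4 of 11 alternatives, and at -0.10, adjusted p = 0.749, with a split at the median of the muscle score) and *Fabp5* by 0.59 ± 0.16 (adjusted p = 0.0152). Genes of muscle differentiation were higher as the split implies, 7 of 7 myogenic and 6 of 8 endplate genes.

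Outside muscle, the endothelium-rich spots held more transcripts of several vessel wall and stromal genes. Of 13 mural genes 6 were lower in muscle and 1 was higher, where 4.72% of all genes tested were lower and 5.2% higher. *Rgs5*, a pericyte gene, stood at 12.3, 18.4 and 6.75 TMM-scaled CPM in muscle spots against 28.6, 82.9 and 21.8 in the others (-1.92 ± 0.36, adjusted p = 5.46e-04 by edgeR), lower in 3 of 3 sections. *Acta2* was higher in muscle (0.54 ± 0.14, adjusted p = 0.0111 by edgeR). *Angpt1*, the ligand of the receptor encoded by *Tek*, stood at 4.90, 11.2 and 16.4 against 19.99, 59.6 and 50.9 (-2.13 ± 0.37, adjusted p = 2.82e-04 by edgeR), and *Vegfd*, a ligand of lymphatic growth, changed by -1.81 ± 0.37 (adjusted p = 0.00156). Of 5 venous genes 3 were lower in muscle, namely *Nrp2* (-1.11 ± 0.23), *Nr2f2*, the venous identity factor (-1.18 ± 0.35), and *Vwf*, the clotting factor carrier (-1.29 ± 0.37), the last 2 in 2 of 3 sections. *Vwf* was called in 4 of the 10 alternatives that tested it.

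Arterial and lymphatic genes were split as well. Of 11 arterial genes 3 were lower in muscle, among them the Notch ligand *Jag1* (-1.06 ± 0.21, adjusted p = 0.00101 by edgeR) and *Efnb2*, the arterial ephrin (-0.97 ± 0.28, adjusted p = 0.0246). *Prox1*, the lymphatic factor that muscle fibers also express, was higher in muscle (0.88 ± 0.25, adjusted p = 0.0218 by edgeR) and *Reln*, secreted by lymphatic endothelium, lower (-1.71 ± 0.38, adjusted p = 0.00339). Most of the 11 alternatives did not call *Efnb2* (called in 4, -1.25 to -0.48) or *Prox1* (called in 3, 0.40 to 0.94), while *Jag1* was called in 8 (-1.24 to -0.36). In the capillary list, 3 genes were higher and 2 lower, the latter *Meox2* (-0.96 ± 0.18, called in 5 of 11 alternatives) and *Aqp1*, a water channel (-1.27 ± 0.23). *Id3*, a target of BMP signals, was lower as well (-0.91 ± 0.15, adjusted p = 1.11e-04 by edgeR). Genes of other cells moved alongside: *Tnmd*, a tendon protein, stood at 29.4, 44.9 and 70.3 against 99.9, 350 and 429 (-2.68 ± 0.19, adjusted p = 8.10e-10 by edgeR). Called lower in muscle were 5 of 6 tendon, 5 of 8 macrophage, 4 of 9 fibroblast and 3 of 4 erythrocyte genes, where 4.72% of all genes tested were. No erythrocyte gene was lower in each section, whereas 6 tendon, 6 macrophage and 4 fibroblast genes were. The part of these genes of other cells in the vessel genes was not tested. The largest contrasts outside the lists were *Slit3*, a guidance ligand (-3.07 ± 0.37), and *Gli1*, a target of hedgehog signals (-2.76 ± 0.41), on the lower side, and *Snai3* (2.29 ± 0.55) and the myosin light chain *Myl2* (2.22 ± 0.43) on the higher side. With a split at the median of the muscle score, 392 genes passed in place of 927.

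The same rule at E18.5 chose 346 of 3460 and 253 of 2525 spots in the 2 controls, of which 85.5% and 66.0% were muscle spots. Whether the contrast between endothelium-rich and other spots differed with age was tested as an interaction over the 5 control sections. Of 13735 genes tested with edgeR, none was called with a log2 fold change higher at E14.5 than at E18.5 (0%), and 2 were called with a lower one (0.0146%). At an unadjusted p under 0.05, the log2 fold change was higher at E14.5 for 1196 genes and lower for 626, and DESeq2 called 5 and 20. *Gja5*, the connexin of arterial endothelium, stood at 87.2, 63.6 and 60.3 CPM in endothelium-rich spots at E14.5 against 54.3, 53.2 and 58.6 in other spots. At E18.5 it stood at 130 and 55.6 against 17.9 and 7.97. The difference of the contrasts was -2.26 ± 0.15 on the log2 scale (adjusted p = 1.68e-04 by edgeR), and came with a lower level in other spots at E18.5 in both sections. *Tagln*, a smooth muscle gene of the mural list, stood at 144, 156 and 154 against 190, 189 and 172 at E14.5 and at 168 and 270 against 67.6 and 85.1 at E18.5, so that it was lower in endothelium-rich spots in 3 of 3 sections at E14.5 and higher in 2 of 2 at E18.5, with a lower level in other spots in both E18.5 sections than in the 3 at E14.5 (-1.55 ± 0.13, adjusted p = 0.00104 by edgeR).

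Without the section as a block neither gene passed (adjusted p = 0.811 for *Gja5* and 0.445 for *Tagln* by edgeR), and outside muscle *Gja5* did not (-0.74, adjusted p = 0.710). Neither passed by edgeR when spots were ranked by 8 other endothelial genes (adjusted p = 0.234 for *Gja5* and 0.437 for *Tagln*). *Tagln* also did not pass with the top 20% of spots (adjusted p = 0.590 by edgeR), with the mean z-score (0.430) or without E18.5 control 2 (-1.42, adjusted p = 0.0823). E14.5 controls 1 and 2 were made with Space Ranger 2.0.0, and E14.5 control 3 and both E18.5 controls with 2.0.1. In control 3 alone *Gja5* stood at 60.3 against 58.6 and *Tagln* at 154 against 172.

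**Figure D5:**
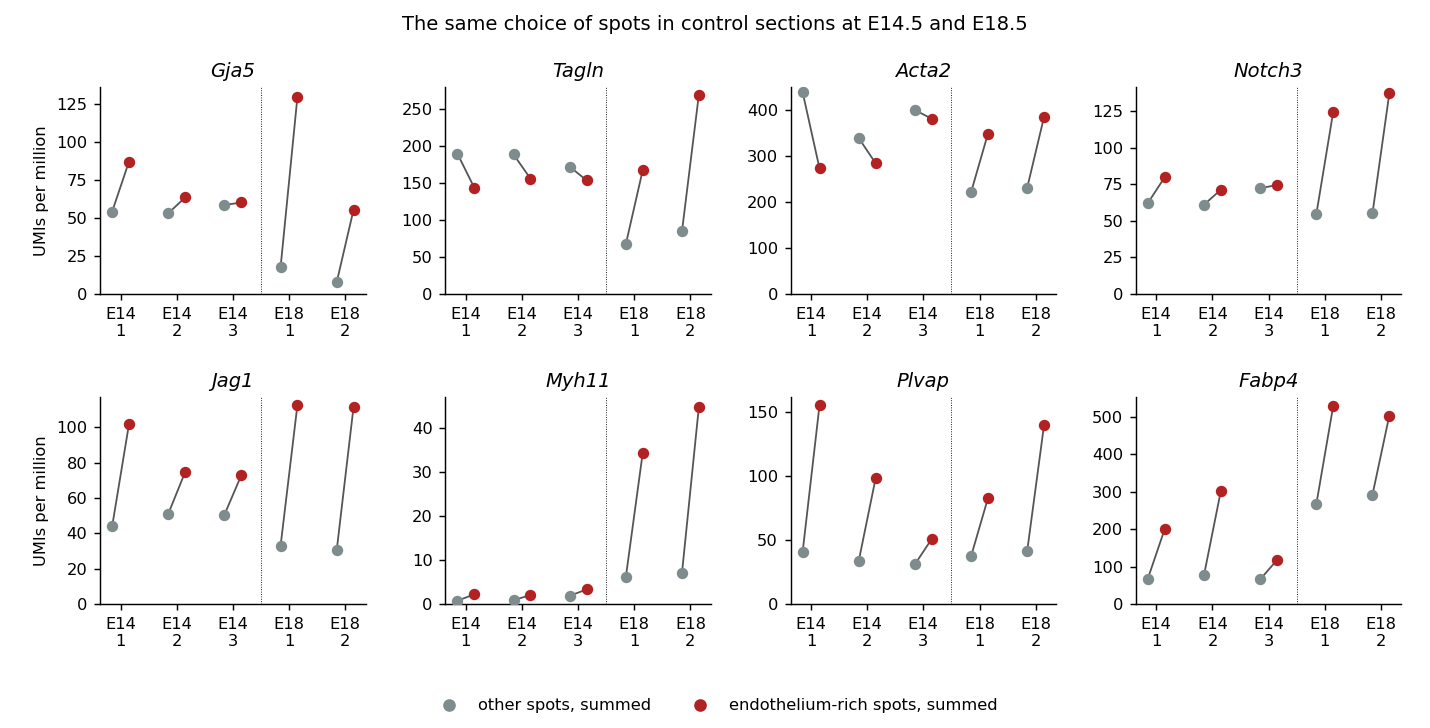
CPM (vertical axis, from 0) of *Gja5*, *Tagln* and 6 further vessel genes in the summed endothelium-rich (red) and other (grey) spots of the 3 control sections at E14.5 and the 2 at E18.5, with a line joining the points of a section. *Tagln* lies lower in endothelium-rich spots in each E14.5 section and higher in both E18.5 sections.

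Beyond *Gja5* and *Tagln* no member of the vessel lists was called for age. Of 14 arterial genes 1 was called and the median difference of the contrasts was -0.55, of 18 mural genes 1 and -0.25, and of 30 endothelial genes none and 0.39, against 0.05 over all genes tested. Without TMM scaling the last value moved to -0.17 and 75 genes were called, with both *Gja5* and *Tagln* among them. The summed levels behind these values were, for the arterial list, 801, 667 and 516 CPM against 404, 388 and 410 at E14.5 and 912 and 866 against 283 and 294 at E18.5. For the mural list they were 1632 and 1797 against 893 and 923 at E18.5, where at E14.5 both classes of spots were close to each other. For the 30 endothelial genes they were 2739, 2802 and 1559 against 1035, 1128 and 1067 at E14.5 and 3246 and 3446 against 1572 and 1582 at E18.5. Genes at these ages that did not pass include *Jag1* (-0.82 ± 0.16, adjusted p = 0.15 by edgeR) and *Notch3*, the Notch receptor of mural cells (-0.80 ± 0.11, adjusted p = 0.065), the latter named after its values were seen.

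The CaV1.1 KO section at E14.5 is a single embryo, so its values stand beside the controls without a test. The rule chose 89 of 892 spots, of which 18% were muscle spots against 59.2% of the other spots, and their median was 4624 UMIs against 18738. All 30 endothelial genes were higher in these spots, with a summed level of 3118 against 860 CPM. All 12 arterial genes were higher too, and 15 of 17 mural genes, with a summed mural level of 1352 against 859. These counts stand without the share of all genes that were higher in this section. Skeletal muscle genes summed to 4049 against 11219.5 CPM there. *Gja5* stood at 160 against 103 and *Plvap* at 136 against 35.1. Hepatocyte genes summed to 527 against 3234 and erythrocyte genes to 1639 against 11760. *Sftpc*, a surfactant gene of the lung named after its values were seen, stood at 61.4 against 8.50, and in the controls at E14.5 at 1.69 against 0.347, 0 against 0 and 0 against 0. The chosen spots of this section thus lay largely outside muscle, and the part of lung tissue in them was not tested.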

How the data were processed

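Gene expression was measured with the 10x Visium FFPE assay, which counts ligated probe pairs, in 8 sections, of which 6 entered this report. The deposited counts are UMIs per gene and spot, which the authors obtained with Space Ranger on the mm10 reference, by version 2.0.0 for the KO and controls 1 and 2 of E14.5 and by 2.0.1 for all other sections (per the file headers). No normalization had been applied. The files list 19465 genes, and 9 genes of the lists are not among them.

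Spots with at least 1000 UMIs were kept, ranked in each section, and UMIs summed per section and class of spots. A spot holds several cells, so spots were given no cell type and no doublet caller was run. The sums were tested with edgeR 4.0.16 in R 4.3.3 (filterByExpr, TMM, quasi-likelihood F test with the section as a block, since both classes share an embryo). Genes with a Benjamini-Hochberg adjusted p under 0.05 over all genes tested were called, and SE is the absolute log2 fold change divided by the square root of F. The 5 rule genes stayed in library sizes and out of the tests. CPM per section have no further scaling unless TMM is named, and compare classes of spots within a gene, not genes. Deviations from the group means of both sums of a section correlated at 0.56, 0.32 and 0.37. Intervals are exact 95% binomial. The scripts were tested on simulated data.

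The members and the 30 gene lists were chosen with earlier results of these data known. Named genes are the 5 rule genes, up to 4 called members of each list with the largest change, up to 2 uncalled ones with the highest level, and the largest called changes outside the lists (10 each way, 5 for muscle and age, mean log2 CPM at least 4, the same direction in every section). Sequences and positions are from RefSeq (GRCm38.p6), in which all 166 named genes matched. DESeq2 1.42.0, other scalings, filters, rankings, shares of spots and left-out sections were tried. Moran's I scores deposited per gene and section were not used.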

Additional observations from a re-analysis of the deposited data

Results flagged for a closer look

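For 2 genes the difference between endothelium-rich and other spots itself differed between the ages, by the interaction term of edgeR's quasi-likelihood F test over 3 E14.5 and 2 E18.5 control sections. For *Gja5* the log2 fold change at E14.5 minus that at E18.5 was -2.26 (adjusted p = 1.68e-04), and it lay between -2.67 and -0.74 in 12 other settings, 9 of which called it. For *Tagln* the difference was -1.55 (adjusted p = 0.00104), between -2.19 and -0.80 in 12 other settings, 8 of which called it. The numbers of chosen spots differed between the ages as well (68 to 84 at E14.5, 346 and 253 at E18.5), and E14.5 controls 1 and 2 were made with another Space Ranger version than E14.5 control 3 and both E18.5 controls. The part of either was not tested.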

How the results depend on the processing

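Endothelium-rich against other spots gave 91 called genes. DESeq2 called 162, no filter on low counts 376, muscle spots only 540, spots outside muscle 300, other spots next to a chosen spot 560, and the top 5% of spots 453. No gene was called with the top 20%, 5000 UMIs per spot, the mean z-score, ranking by 8 other endothelial genes, or without the replicate block (0 genes, 1099 at an unadjusted p under 0.05). Among alternatives chosen after seeing the data, spots without adrenal cortex genes gave 346, and muscle spots without control 1 gave 217. Leaving out a section gave 0 (without control 2) to 552 (without control 1). Without the replicate block 1 of the 5 rule genes passed. For age, 2 genes became 25 with DESeq2, 87 in muscle, 147 outside muscle, 75 without TMM, 240 without a filter, 683 with the top 5%, 1 with the top 20% or the z-score, and 0 with the 8 genes or without the replicate block, and 1 (without E18.5 control 2) to 542 (without E14.5 control 1) with a section left out. For muscle against other endothelium-rich spots, 927 became 306 with DESeq2, 392 with a split at the median, 516 with the 8 genes and 301 with the top 5%. It became 565 with the z-score, 674 with 5000 UMIs per spot and 662 without the replicate block. The count rose to 1235 with the top 20%, 1069 without a filter, 991 without TMM and 942 with RLE scaling. With a section left out it was 565 (without control 2) to 1079 (without control 1).

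Of named genes called in either setting, signs turned for adrenal genes: *Cyp11a1* in muscle (-0.75), in the top 5% (-3.76) and, for age, outside muscle (-5.89) and in the top 5% (-4.70); *Star* outside muscle (-4.84), in the top 5% (-3.07) and for age in the top 5% (-2.88); and *Mc2r* in the top 5% (-1.64). Outside muscle *Mef2c* (0.49, called) and *Cxcr4* (-0.15, not called) turned, and so did 14 named genes called in neither, muscle genes among them, while the muscle genes *Des* and *Tnnt3*, named after their values were seen, were called higher there. Between muscle and other chosen spots, *Alb* turned with DESeq2 (0.021) and ranged from -2.25 to 0.68 with a section left out, *Fabp4* turned with the median split (-0.10) and *Col22a1* with the 8 genes (-0.15). The cause of these changes was not tested. With 3 sections and chosen spots of 1194908 to 3870959 UMIs a section, genes of few UMIs could not be resolved.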
